A study of Homo sapiens with 4 samples.

Results

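The 10 genes described here encode surface proteins by which plasma cells hold on to the bone marrow and to other cells. They are the integrin beta chains ITGB7, ITGB1 and ITGB2, the alpha chains ITGA4, ITGAL, ITGAE and ITGA6, the integrin ligand ICAM1, the hyaluronan receptor CD44 and the epithelial cell adhesion molecule EPCAM. They were picked by symbol, and all 10 of the 22187 measured genes had 1 row in each of the 4 tables. The libraries came from KMS18 and KMS28BM, called K18 and K28BM in the labels, which are human multiple myeloma lines. Both carry the t(4;14) translocation and are labelled as plasma cells of bone marrow. Each line gave 1 control library, with a luciferase construct named Luc, and 1 from cells stably depleted of PKCα, the kinase encoded by PRKCA. The 2 lines are 2 separate genetic backgrounds, with clone or pool status of the knockdown cells not given in the sources used here.

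Integrins are pairs of an alpha and a beta chain that reach the surface only as a pair, so the choice of partner sets which ligand a cell can hold. The ITGA4 chain pairs with ITGB1 to bind VCAM1 and fibronectin on marrow stroma, and with ITGB7 to bind MADCAM1, the vascular ligand used in homing to the gut. ITGAL pairs with ITGB2 to form LFA-1, the leukocyte receptor for the ICAM proteins, ITGAE pairs with ITGB7 to bind E-cadherin, and ITGA6 pairs with ITGB1 or ITGB4 to bind laminins. In myeloma, adhesion to stroma through these receptors is known for its links to survival and drug resistance, and the PKC enzymes are known as signals that switch integrins between inactive and active shapes.

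The libraries held between 37940949 and 39507281 expected counts, an estimated number of reads per gene. Values of a line are given below as a pair, control first and knockdown second, in FPKM, which are fragments scaled to listed gene length and library size. PRKCA stood at 7.46 and 1.47 FPKM in the KMS18 pair and 10.86 and 2.43 in the KMS28BM pair. All 8 plasma cell markers reached 1 FPKM, whereas 0 of 6 stromal and 0 of 6 monocyte markers did in any library. Of 5 endothelial markers PECAM1 alone reached 1 FPKM, at 0.54 and 2.25 FPKM in the KMS18 pair and 0.79 and 0.88 in the KMS28BM pair. Of 6 epithelial markers KRT8 alone passed 1 FPKM, and the list summed to between 0.36 and 2.44 FPKM. The plasma cell markers summed to 1988.63 and 1223.55 FPKM in KMS18 and to 1971.87 and 1172.97 FPKM in KMS28BM, control then knockdown. Under knockdown edgeR called 6 of the 8 lower and 1 higher at an adjusted p of 0.05, beside 5.25% and 3.57% of all tested genes. The uncalled PRDM1 also had fewer counts in both lines (log2 ratios -0.66 in KMS18 and -0.14 in KMS28BM, edgeR adjusted p = 0.12). T cell markers summed to 7.92, 21.87, 1.25 and 3.44 FPKM in the same library order, nearly all of it CD3E, which rose (count ratios 2.77 in KMS18 and 2.94 in KMS28BM, edgeR adjusted p = 0.00611). The part of these marker shifts in the results below was not tested. In bulk RNA, fewer cells with a transcript and less transcript per cell cannot be told apart.

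Under knockdown 2 of the 10 genes passed edgeR's test over both lines at an adjusted p of 0.05, where 8.82% of the 14870 tested genes did, and their promoters are shown first because they moved in opposite directions. The sequences are RefSeq windows on GRCh38.p14, from 250 bases before to 50 bases after the annotated start, in the direction of transcription. Capitals mark a match, on either strand, to 1 of 5 searched motifs: AP-1 (TGANTCA), NF-kB (GGAANTTCC), RUNX (TGTGGT), E-box (CACGTG) and the MAF half-site (TGCTGAC). The matches found did not overlap each other. The ICAM1 window is chr19:10270870-10271169 on the plus strand, and the ITGB7 window is chr12:53207202-53207501 on the minus strand.
ICAM1: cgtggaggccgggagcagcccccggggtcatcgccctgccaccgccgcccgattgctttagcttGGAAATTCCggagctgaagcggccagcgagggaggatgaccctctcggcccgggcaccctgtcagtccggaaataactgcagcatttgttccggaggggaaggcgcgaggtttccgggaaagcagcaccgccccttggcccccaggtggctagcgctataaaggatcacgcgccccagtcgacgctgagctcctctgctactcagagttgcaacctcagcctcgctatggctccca
ITGB7: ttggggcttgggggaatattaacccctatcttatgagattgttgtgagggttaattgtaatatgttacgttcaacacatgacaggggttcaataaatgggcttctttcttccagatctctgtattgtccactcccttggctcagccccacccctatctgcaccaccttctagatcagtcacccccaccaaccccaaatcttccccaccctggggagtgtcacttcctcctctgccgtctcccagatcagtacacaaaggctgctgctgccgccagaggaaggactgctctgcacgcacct
The ICAM1 window held GGAAATTCC at bases 65 to 73 of the window, which starts at position -186 from the start site. The NF-kB letters occurred in 0.965% of 35116 windows of this length. The ITGB7 window held none of the 5 motifs, which occurred in 7.71% (AP-1), 13.1% (RUNX), 7.26% (E-box) and 4.19% (MAF half-site) of windows. Windows were found for 7 of the 10 members. Among the transcription factors measured, MAF, known as a driver of ITGB7 in other myeloma subtypes, was at most at 0.04 FPKM in any library.

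ITGB7 (ENSG00000139626.15, chr12:53191318-53207307, minus strand, GRCh38) was the main beta chain transcript of KMS18 but not of KMS28BM. It stood at 189.94 FPKM in the KMS18 control and 332.26 FPKM in the KMS18 knockdown. In KMS28BM it stood at 10.09 FPKM in the control and 38.22 FPKM in the knockdown, so even the higher KMS28BM library lay far below both KMS18 libraries. As a share of the summed FPKM of 7 beta chains, ITGB7 made up 89.8% and 93.0% in KMS18 and 18.1% and 39.4% in KMS28BM, control then knockdown. ITGB1, the common partner of most alpha chains (ENSG00000150093.18, chr10:32900319-33005792, minus strand), took 8.74% and 6.17% in KMS18 and 73.3% and 56.4% in KMS28BM. The leading beta chain was thus ITGB7 in both KMS18 libraries and ITGB1 in both KMS28BM libraries. The ratio of ITGB7 to ITGB1 was 10.3 and 15.1 in KMS18 and 0.247 and 0.699 in KMS28BM, and so was higher in the knockdown of each line without crossing 1.

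**Figure D1:**
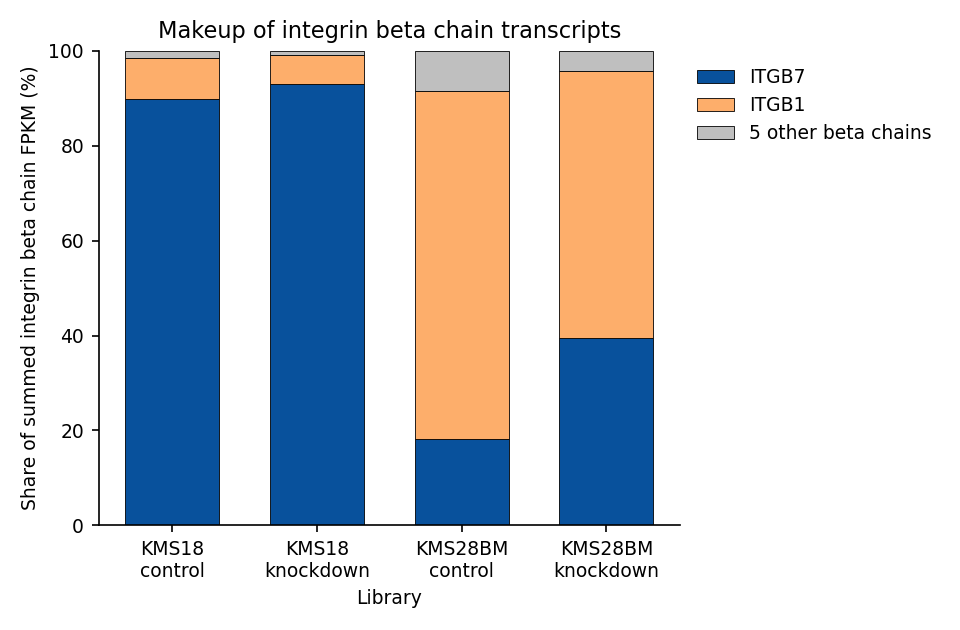
Share of the summed integrin beta chain FPKM (%, vertical axis) taken by ITGB7, ITGB1 and the 5 other measured beta chains in each of the 4 libraries, 1 bar per library. ITGB7 takes 89.8% and 93.0% in KMS18, and goes from 18.1% to 39.4% between the KMS28BM control and knockdown.

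ITGB7 had more counts under knockdown in both lines. The ratio of knockdown to control counts, scaled to library size by TMM, was 1.70 in KMS18 (log2 0.76, 95% interval 0.74 to 0.79) and 3.52 in KMS28BM (log2 1.82, interval 1.72 to 1.92). These intervals cover counting error only, since each line has 1 library per construct. The log2 ratio was larger in KMS28BM by 1.05 (0.95 to 1.15, counting error only), a difference that the design leaves without a test. Over both lines the edgeR log2 difference was 1.27 (SE 0.23, adjusted p = 0.0221, higher in 2 of 2 lines). Here and below, SE is the absolute log2 difference divided by the square root of edgeR's F statistic, not an error reported by edgeR. The call was lost with DESeq2 (adjusted p = 0.0711), with no filter on low counts (edgeR adjusted p = 0.0844) and without the cell line block (edgeR adjusted p = 1). ITGB7 overlaps ZNF740 on the opposite strand and the kit does not keep strand. ZNF740 stood at 11.41 and 12.36 FPKM in the KMS18 pair and 9.98 and 9.75 in the KMS28BM pair, and its part in the ITGB7 values was not tested.

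ITGB1 stood at 18.48 and 22.04 FPKM in the KMS18 pair and 40.88 and 54.68 in the KMS28BM pair. Its count ratio was nearly the same in both lines, at log2 0.28 (0.20 to 0.36) in KMS18 and 0.31 (0.26 to 0.36) in KMS28BM, and the lines' ratios differed by 0.02 (-0.07 to 0.12). It did not pass the test over both lines, with an edgeR log2 difference of 0.29 (SE 0.09, adjusted p = 0.0981). ITGB2, the leukocyte beta chain (ENSG00000160255.17, chr21:44885953-44931989, minus strand), was at 0.33, 0.46, 0.64 and 0.75 FPKM with the KMS18 pair first, on 52, 77, 122 and 144 counts. Both of its within-line intervals included 0 (-0.02 to 1.04 and -0.18 to 0.53), and the edgeR adjusted p was 0.552.

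Among the alpha chains, ITGA4 (ENSG00000115232.13, chr2:181457202-181536187, plus strand) stood at 82.90 and 80.99 FPKM in the KMS18 pair and 38.17 and 47.22 in the KMS28BM pair. The ratio of ITGA4 to ITGB7 was 0.437 and 0.244 in KMS18 and 3.78 and 1.24 in KMS28BM. ITGA4 transcript was therefore below that of ITGB7 in both KMS18 libraries and above it in both KMS28BM libraries. ITGA4 counts had a log2 ratio of -0.06 (-0.10 to -0.02) in KMS18 and 0.25 (0.19 to 0.30) in KMS28BM, and over both lines a log2 difference of 0.09 (edgeR adjusted p = 0.652).

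ITGAL (ENSG00000005844.17, chr16:30472658-30523185, plus strand) was the most abundant alpha chain of KMS18, at 212.39 and 170.27 FPKM, and stood at 8.21 and 9.66 FPKM in KMS28BM. It took 53.9% and 47.4% of the summed FPKM of 18 alpha chains in KMS18 and 11.7% of it in both KMS28BM libraries, where ITGA4 took 54.4% and 57.2%. Its only known beta partner, ITGB2, was scarce in all 4 libraries, so on FPKM ITGAL exceeded it by 644 and 370 times in KMS18 and by 12.8 and 12.9 times in KMS28BM. These ratios depend on the listed lengths. In KMS18 they were 45.8% and 56.0% of the longest coding transcript for ITGAL, and 133% and 139% for ITGB2. On counts ITGAL had 18912 and 18611 against 52 and 77 in KMS18, and 845 and 1070 against 122 and 144 in KMS28BM. The difference of ITGAL between 212.39 and 170.27 FPKM in KMS18 was much smaller on counts, which were 18912 and 18611 (log2 ratio -0.08, -0.11 to -0.05). The gene length listed for it grew by 22.3% between these libraries, a growth of 20% or more that 4.72% of genes showed in this line. Over both lines ITGAL had a log2 difference of 0.09 (edgeR adjusted p = 0.708), and limma on log2(FPKM + 1) gave a value of -0.05.

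ITGAE (ENSG00000083457.11, chr17:3714628-3801243, minus strand), the partner of ITGB7 in epithelial tissue, stood at 11.49 and 9.14 FPKM in the KMS18 pair and 9.86 and 10.15 in the KMS28BM pair. Its listed length was between 687 and 702 bases in the 4 libraries, at most 18.2% of its longest coding transcript of 3858 bases in GENCODE 29, and its FPKM is high for its 221 to 279 counts. ITGAE also overlaps exons of HASPIN, a mitotic kinase gene on the other strand, at 7.07, 4.59, 6.93 and 6.92 FPKM in the same library order. ITGAE and HASPIN counts were both lower in the KMS18 knockdown (log2 ratios -0.40, interval -0.66 to -0.14, and -0.68, interval -0.85 to -0.52), and neither passed the test over both lines (edgeR adjusted p = 0.607 and 0.216). Reads of the 2 genes in the shared exons cannot be told apart.

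ITGA6 (ENSG00000091409.14, chr2:172427354-172506282, plus strand), a laminin receptor chain, stood at 4.38 and 4.74 FPKM in the KMS18 pair and 2.31 and 1.41 in the KMS28BM pair. Counts went from 856 to 983 in KMS18 (log2 ratio 0.14, 0.01 to 0.27) and from 417 to 291 in KMS28BM (log2 ratio -0.58, -0.80 to -0.36). The ratios of the lines had opposite signs and the gene did not pass the test over both (log2 difference -0.20, edgeR adjusted p = 0.562).

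ICAM1 (ENSG00000090339.8, chr19:10270835-10286615, plus strand), the ligand of LFA-1 and a textbook NF-kB target, stood at 23.91 and 34.24 FPKM in the KMS18 and KMS28BM controls and at 15.02 and 20.08 FPKM in their knockdowns. Both knockdown libraries lay below both controls. Counts fell from 2709 to 1757 in KMS18 (log2 ratio -0.68, -0.77 to -0.60) and from 4095 to 2457 in KMS28BM (log2 ratio -0.80, -0.87 to -0.73). Over both lines the log2 difference was -0.74 (SE 0.10, edgeR adjusted p = 0.00998, lower in 2 of 2 lines), and of the 8 alternative settings with a test the call was lost in 1, without the cell line block (adjusted p = 1). The NF-kB subunit transcripts did not pass the test: RELA was at 73.82 and 77.39 FPKM in the KMS18 pair and 93.48 and 100.4 in the KMS28BM pair, and NFKB1 at 19.24 and 19.52 and at 12.55 and 12.29 FPKM. NFKB2 had fewer counts under knockdown in both lines (log2 ratios -0.22, interval -0.27 to -0.17, and -0.28, interval -0.33 to -0.24), with an edgeR log2 difference of -0.25 (SE 0.09, unadjusted p = 0.0314, adjusted p = 0.145). RELB had an edgeR adjusted p of 0.916. These are transcript levels only, which do not measure the activity of the proteins.

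CD44 (ENSG00000026508.17, chr11:35138870-35232402, plus strand), which binds hyaluronan and is anchored to actin by ezrin, stood at 36.54 and 31.02 FPKM in the KMS18 pair and 58.67 and 50.62 in the KMS28BM pair. On FPKM it was lower in both knockdowns, but on counts it was lower in KMS28BM only (log2 ratio -0.22, -0.29 to -0.16), with 0.02 (-0.06 to 0.10) in KMS18. CD44 is spliced into many isoforms, with 39 transcripts in GENCODE 29. Its listed length was 1862, 2306, 1790 and 1869 bases with the KMS18 pair first, and so was longest in the KMS18 knockdown by 23.8% over its control. The edgeR log2 difference was -0.10 (adjusted p = 0.589).

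EPCAM (ENSG00000119888.10, chr2:47345158-47387601, plus strand), an adhesion protein of epithelial cells, had the highest FPKM of the 10 genes in the KMS18 control and was near 0 in KMS28BM. It stood at 289.95 and 206.57 FPKM in KMS18, on 14372 and 10278 counts, and at 0.04 FPKM in both KMS28BM libraries, on 1 and 2 counts. The length listed for EPCAM in KMS18 was 78.4% and 78.8% of the longest coding transcript. In KMS28BM it was 752 and 1501 bases, the exact lengths of a retained-intron and a nonsense-mediated decay transcript of EPCAM in GENCODE 29. Of other epithelial genes, ESRP1, a splicing regulator known to act on CD44, followed the EPCAM pattern between the lines, at 52.37 and 55.16 FPKM in KMS18 and 0.29 and 2.07 in KMS28BM (edgeR log2 difference between lines -5.93, SE 0.49, adjusted p = 6.81e-05). KRT8, a keratin, was at 0.81 and 2.11 FPKM in the KMS18 pair and at 0.07 and 0.03 in KMS28BM, while CDH1 was at most at 0.11 FPKM and CLDN7 at most at 0.25 FPKM in any library. CLDN4 went the other way, at 0.07 FPKM in both KMS18 libraries and 0.16 and 0.20 in KMS28BM. It rests on few counts, 4 and 11 in the KMS18 pair and 20 and 32 in the KMS28BM pair. Its edgeR log2 difference between lines was 1.70 (SE 0.56, adjusted p = 0.0326). Of the 6 epithelial markers 2 were tested between the lines, with 1 called higher in KMS28BM (CLDN4) and 1 lower (KRT8). Of all tested genes 30.6% were called higher and 32.3% lower. ESRP1, KRT8, CLDN7 and CLDN4 were chosen for mention after their values were seen. The EPCAM count ratio in KMS18 was log2 -0.54 (-0.58 to -0.51), and the edgeR value over both lines (-0.53, adjusted p = 0.0665) rests on KMS18.

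**Figure D2:**
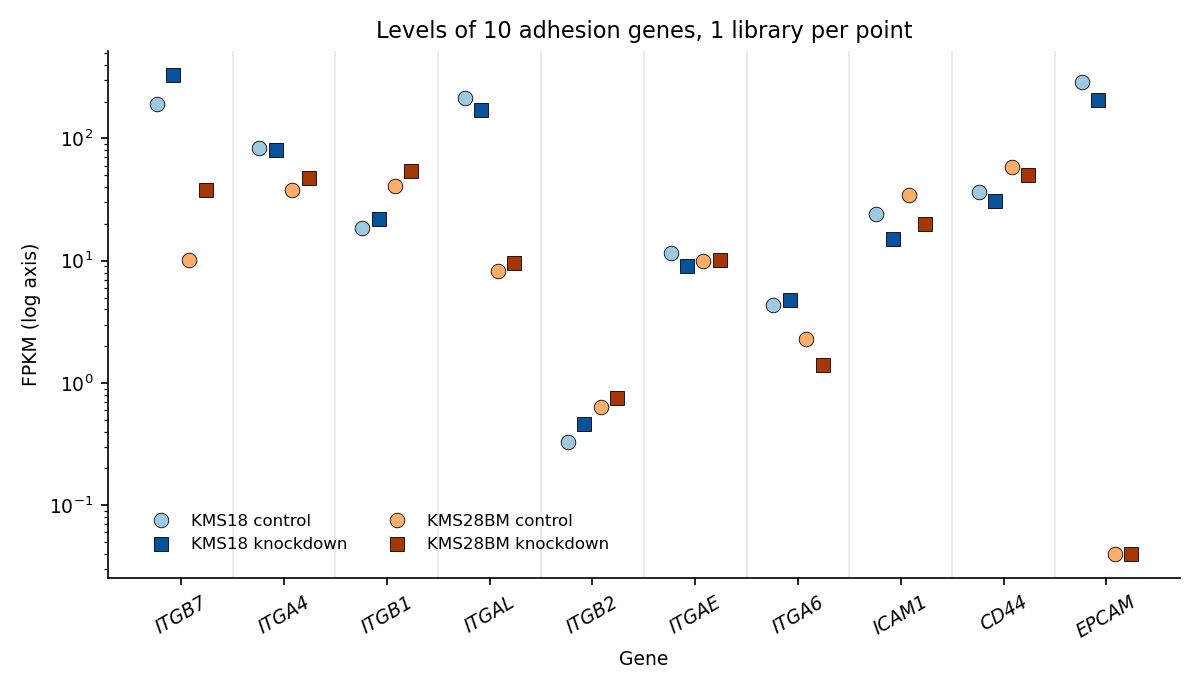
FPKM (vertical log axis) of each of the 10 adhesion genes in the 4 libraries, 1 point per library, with circles for controls and squares for knockdowns. ITGB7, ITGAL and EPCAM lie between 170.27 and 332.26 FPKM in the KMS18 pair and at 38.22 FPKM or less in KMS28BM, while ITGAE stays between 9.14 and 11.49 FPKM.

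**Figure D3:**
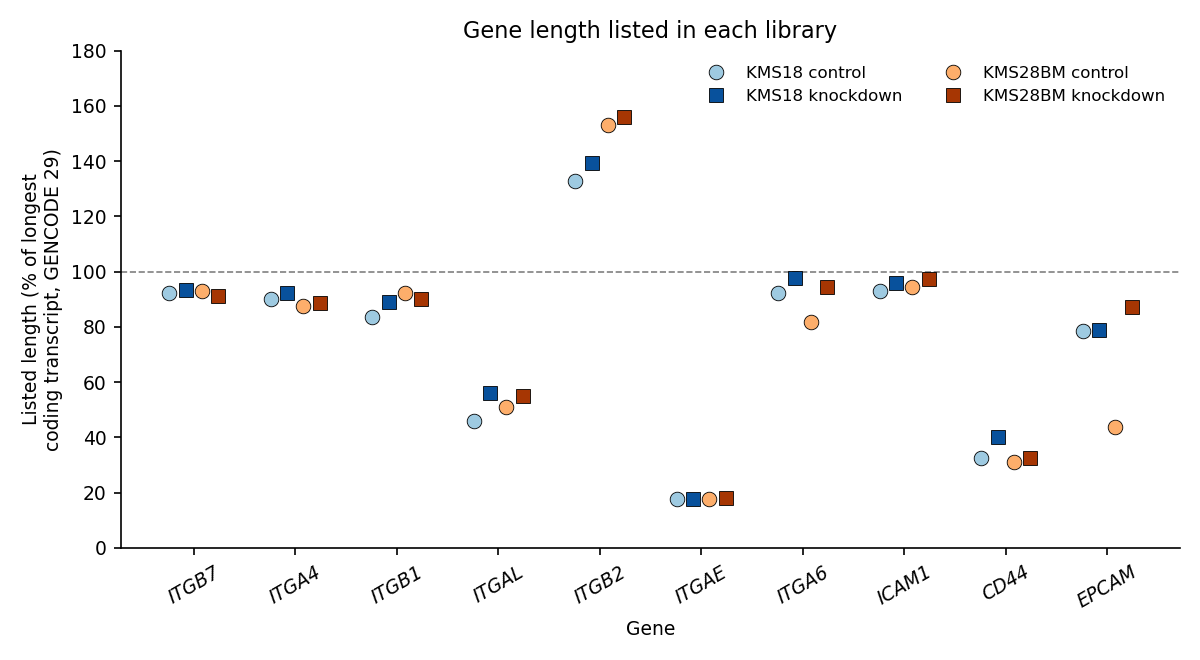
Gene length listed in each library as a percent of the longest coding transcript in GENCODE 29 (vertical axis), 1 point per library, for the 10 genes. ITGAE sits near 18%, CD44 and ITGAL reach 40.2% and 56.0% in the KMS18 knockdown, and ITGB2 lies between 133% and 156%, and the 4869 and 4959 bases listed for it in KMS28BM are longer than its longest annotated transcript of 4781 bases.

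Counted over the 10 genes, 1 was called higher under knockdown (ITGB7) and 1 lower (ICAM1). Of the 14870 tested genes 8.82% were called in either direction (3.57% higher and 5.25% lower). The median log2 difference was -0.01 over the 10 genes and 0.02 over all genes. For 5 of the 9 genes with counts in both lines (ITGA4, ITGAL, ITGAE, ITGA6 and CD44) the count ratios of the lines had opposite signs, as they did for 28.9% of all tested genes with counts in both lines. The other 4 were ITGB7, ITGB1 and ITGB2, with more counts under knockdown in both lines, and ICAM1, with fewer. No construct was repeated within a line, so a p-value over both lines rests on 1 residual degree of freedom moderated over all tested genes. It is not a measure of how alike these 2 lines moved for 1 gene.

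**Figure D4:**
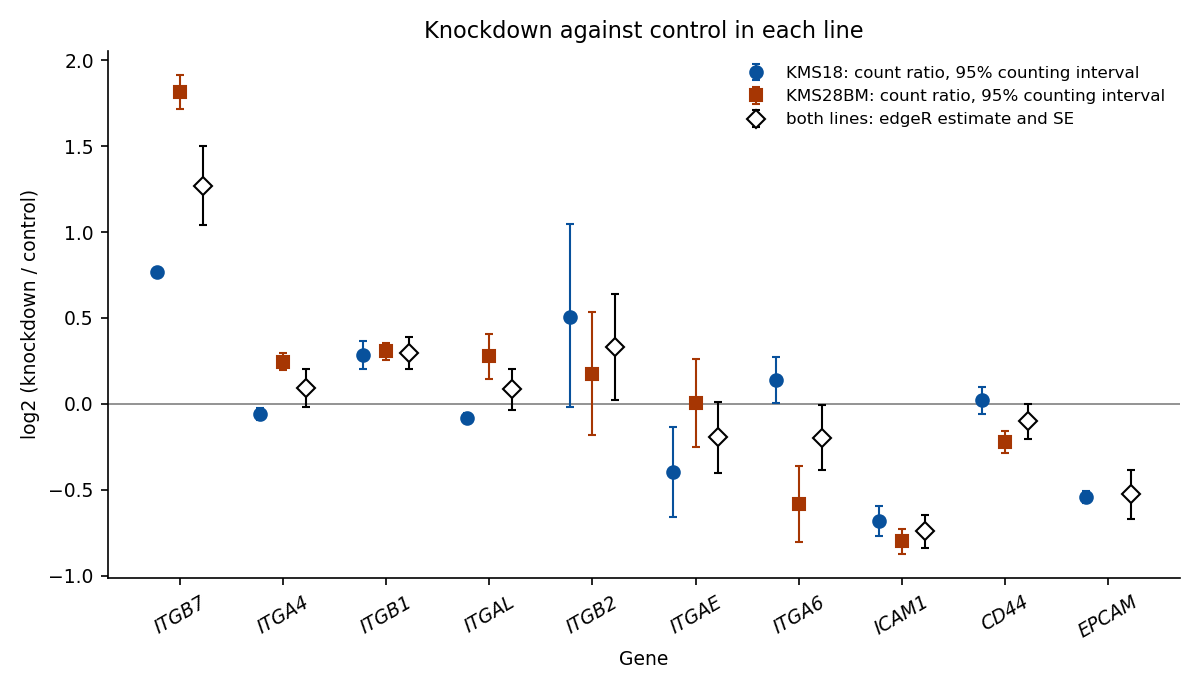
Log2 ratio of knockdown to control (vertical axis) for the 10 genes. Filled symbols are count ratios in each line with 95% counting intervals. Open diamonds are the edgeR estimate over both lines with an SE derived from its F statistic. ITGB7 lies at 0.76 and 1.82 and ICAM1 at -0.68 and -0.80 in the lines, while ITGA4, ITGAL, ITGAE, ITGA6 and CD44 have signs that differ between lines; EPCAM has no KMS28BM value because it has 1 and 2 counts there.

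More of the 10 genes were called between the lines than between the constructs. In all, 4 were called higher in KMS28BM (ITGB1, ITGB2, CD44 and ICAM1) and 5 lower (ITGAL, ITGB7, ITGA6, ITGA4 and EPCAM), where 62.9% of all tested genes were called (30.6% higher and 32.3% lower). The median log2 difference of KMS28BM minus KMS18 was -0.60 over the 10 genes and -0.02 over all genes. The test compares these 2 lines, with the constructs as replicates.

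ITGAL was 24.5 times as abundant in KMS18 as in KMS28BM in the controls and 19.1 times in the knockdowns (edgeR log2 difference -4.43, SE 0.13, adjusted p = 9.76e-07). For ITGB7 the ratio was 19.7 in the controls and 9.51 in the knockdowns (log2 difference -3.76, SE 0.25, edgeR adjusted p = 2.66e-05), so the gap between the lines was smaller in the knockdowns. ITGA4 was 2.36 and 1.91 times as abundant in KMS18 (log2 difference -1.08, SE 0.11, edgeR adjusted p = 0.00019), and ITGA6 2.25 and 3.71 times (-1.53, SE 0.19, edgeR adjusted p = 0.00047). EPCAM had 24650 counts in the KMS18 libraries together and 3 in the KMS28BM libraries, a ratio of 9013 with a 95% counting interval of 3084 to 4.371e+04.

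On the other side, ITGB1 in KMS18 was at 0.431 and 0.425 times its KMS28BM level (log2 difference 1.22, SE 0.09, edgeR adjusted p = 4.90e-05). ICAM1 and CD44 were higher in KMS28BM by log2 values of 0.41 (SE 0.10, edgeR adjusted p = 0.00901) and 0.42 (SE 0.10, edgeR adjusted p = 0.0103). ITGB2 was higher by 0.93 (SE 0.31, edgeR adjusted p = 0.0343), a call lost with DESeq2 (adjusted p = 0.159). ITGAE did not differ beyond its error (-0.11, SE 0.21, edgeR adjusted p = 0.671).

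**Figure D5:**
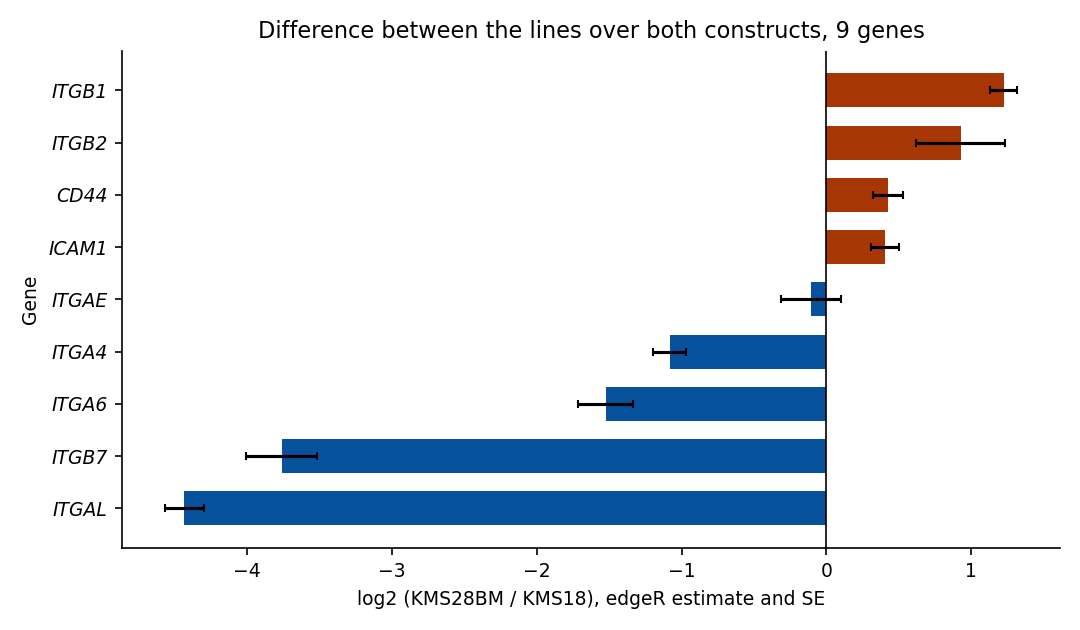
EdgeR log2 difference of KMS28BM minus KMS18 (horizontal axis, bars) for 9 of the 10 genes, over both constructs, with an SE derived from its F statistic. ITGAL and ITGB7 lie at -4.43 and -3.76 and ITGB1 at 1.22, while the error bar of ITGAE spans 0; EPCAM is left out because it has 3 counts in KMS28BM.

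The other integrin subunits of the tables showed no call under knockdown: 0 of 12 tested passed edgeR's test, with 1 at an unadjusted p under 0.05 (ITGA3), and DESeq2 also called 0. Their median log2 difference was 0.24. Of all tested genes 8.82% were called under knockdown. ITGA8, the alpha chain of a matrix receptor, stood at 57.82 and 58.72 FPKM in KMS18, behind ITGAL and ITGA4 among its alpha chains, and at 1.29 FPKM in both KMS28BM libraries. Its edgeR log2 difference between lines was -5.73 (SE 0.12, adjusted p = 2.88e-07). ITGA3, a laminin receptor chain, was at 19.59 and 27.86 FPKM in the KMS18 pair and 6.82 and 8.03 in the KMS28BM pair, and had a knockdown log2 difference of 0.38 (SE 0.10, edgeR adjusted p = 0.066). Between the lines 7 of the 12 were called lower in KMS28BM and 2 higher, beside 32.3% and 30.6% of all tested genes. ITGA8 and ITGA3 were chosen for mention after their values were seen.

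Under knockdown 3.57% of all tested genes were called higher and 5.25% lower. Of 11 tested ligands and counter-receptors, 2 were called higher under knockdown and 0 lower, with a median log2 difference of -0.10. The 2 were ICAM3, a leukocyte ligand of LFA-1, and FN1, fibronectin. ICAM3 stood at 11.05 and 21.46 FPKM in the KMS18 pair and 23.36 and 34.67 in the KMS28BM pair (log2 difference 0.64, SE 0.12, edgeR adjusted p = 0.0271), so it moved opposite to ICAM1 in both lines. FN1 stood at 0.96 and 1.89 FPKM in the KMS18 pair and 3.91 and 5.53 in the KMS28BM pair (0.81, SE 0.14, edgeR adjusted p = 0.0212). Both calls were lost with no filter on low counts (edgeR adjusted p = 0.0844 and 0.0685), and that of FN1 also with limma on log2(FPKM + 1) (adjusted p = 0.0759). ICAM2, a further LFA-1 ligand, was the most abundant of these ligands at 73.87 and 75.25 FPKM in the KMS18 pair and 57.12 and 51.65 in the KMS28BM pair (edgeR adjusted p = 0.558). VCAM1 was at most at 0.01 FPKM, MADCAM1 at most at 0.35 FPKM and CDH1, which encodes E-cadherin, at most at 0.11 FPKM. JAM2, a junction protein, was at 0.09 and 0.14 FPKM in the KMS18 libraries and at 1.13 and 0.88 FPKM in the KMS28BM libraries. Between the lines 8 of the 11 were called higher in KMS28BM and 2 lower, beside 30.6% and 32.3% of all tested genes. The higher ones of the list included the laminin chains LAMA5 (1.02, SE 0.10, edgeR adjusted p = 0.000176) and LAMC1 (1.99, SE 0.13, edgeR adjusted p = 2.73e-05).

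The share of all tested genes called under knockdown was 3.57% higher and 5.25% lower. Of 38 tested proteins of integrin activation and adhesion sites, 1 was called higher under knockdown and 0 lower, with a median log2 difference of 0.06. It was FERMT2, a kindlin that binds beta chain tails, at 0.48 and 0.41 FPKM in the KMS18 pair and 24.64 and 35.30 in the KMS28BM pair (0.55, SE 0.13, edgeR adjusted p = 0.045). In KMS18 it had 30 and 49 counts, and its listed length there grew by 88.2%. That call was lost in 5 of the alternatives, among them limma on log2(FPKM + 1) (adjusted p = 0.432). FERMT3, the kindlin of blood cells, showed the reverse pattern between the lines, at 14.83 and 15.01 FPKM in the KMS18 pair and 0.69 and 0.29 in the KMS28BM pair. The edgeR log2 differences between the lines were 6.35 (SE 0.15, adjusted p = 3.73e-07) for FERMT2 and -5.51 (SE 0.18, adjusted p = 1.43e-06) for FERMT3. These SE values can understate the error, since each gene was low in 1 line, with 31 and 26 counts for FERMT3 in KMS28BM. The line with ITGAL and ITGB7 as leading chains was thus the line with FERMT3, and the line with ITGB1 leading was the line with FERMT2, a description of 2 lines. FERMT3 was chosen for mention after its values were seen.

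Among 21 other adhesion molecules tested, 4 were called higher under knockdown and 2 lower, with a median of 0.03. These calls make 28.6% of a list chosen with earlier results of these data known, beside 8.82% of all tested genes. CEACAM1, an adhesion receptor of epithelial and immune cells, stood at 0.33 and 2.08 FPKM in the KMS18 pair and 0.16 and 1.15 in the KMS28BM pair (2.79, SE 0.36, edgeR adjusted p = 0.00991). CD47, an integrin-associated protein, stood at 42.42 and 49.22 FPKM in the KMS18 pair and 30.55 and 40.70 in the KMS28BM pair (0.43, SE 0.09, edgeR adjusted p = 0.0373). NECTIN1, a junction protein, also rose (1.82, SE 0.10, edgeR adjusted p = 0.00164). The 2 called lower were SDC1, the heparan sulfate proteoglycan that marks plasma cells, and HMMR. SDC1 stood at 238.61 and 155.73 FPKM in the KMS18 pair and 217.03 and 142.75 in the KMS28BM pair (-0.65, SE 0.10, edgeR adjusted p = 0.0132). HMMR stood at 15.26 and 9.51 FPKM and at 30.67 and 17.86 FPKM (-0.86, SE 0.10, edgeR adjusted p = 0.00842). HMMR is named as a hyaluronan receptor but is also a spindle protein of dividing cells. The call of CD47 was lost with no filter on low counts (edgeR adjusted p = 0.0956), with the highest row per symbol (edgeR adjusted p = 0.0574) and with limma on log2(FPKM + 1) (adjusted p = 0.113).

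Of 8 tested ezrin family genes and CD44 partners, 1 was called lower under knockdown and 0 higher, with a median log2 difference of 0.21. Over all tested genes 5.25% were called lower and 3.57% higher. EZR, which encodes ezrin, stood at 46.06 and 26.55 FPKM in the KMS18 pair and 47.61 and 40.14 in the KMS28BM pair (-0.58, SE 0.14, edgeR adjusted p = 0.0498). Its count ratio was log2 -0.85 (-0.91 to -0.79) in KMS18 and -0.31 (-0.37 to -0.26) in KMS28BM, and the call was lost in 7 alternatives, among them DESeq2 size factors in edgeR (adjusted p = 0.0589). Of 7 tested transcription factors of member genes 0 passed edgeR's test under knockdown, with 1 at an unadjusted p under 0.05, and DESeq2 called 0. Between the lines RUNX3, a factor of blood cells chosen for mention after its values were seen, stood at 66.99 and 64.32 FPKM in the KMS18 pair and 0.10 and 0.34 in the KMS28BM pair. These levels were high and low in the same libraries as those of ITGAL.

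By distance between centred log2(FPKM + 1) profiles over the 4 libraries, the genes most like ITGB7 among 9483 compared were VIL1 (distance 0.593), CNN2 (0.607), CPXM2 (0.692), APOL3 (0.737) and CIITA (0.796). VIL1, an actin-bundling protein, stood at 37.45 and 67.29 FPKM in the KMS18 pair and 1.42 and 4.10 in the KMS28BM pair. CNN2, an actin-binding calponin, stood at 182 and 242 FPKM and at 12.87 and 45.17 FPKM. All 5 were far higher in KMS18 and higher in both knockdowns, as the choice by likeness requires. The genes most like CD44 had smaller distances, of 0.0260 for EIF4E, 0.0359 for BTBD7, 0.0391 for HSPD1, 0.0432 for SGMS1 and 0.0453 for PAGR1. They showed the CD44 pattern of higher KMS28BM than KMS18 levels and lower knockdown than control FPKM, as the choice by likeness requires. On counts their edgeR knockdown log2 differences lay between -0.28 and -0.36, against -0.10 for CD44. Distances of this kind depend on how widely a profile ranges. CD44 lay between 31.02 and 58.67 FPKM and ITGB7 between 10.09 and 332.26, so the 2 sets of distances do not compare closeness.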

How the data were processed

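Each library has 1 table by the authors that lists an expected count (an estimated number of reads), an FPKM value and a gene length per gene, per the file headers. Total RNA (100 ng) went into TruSeq RNA v2 libraries, per the labels' protocols. STAR, Bowtie2, HISAT, GRCh37 and hg19 are named in the submitters' processing notes without roles (counting program not given in the sources used here). Rows that share a symbol were summed. Counts were rounded and tested with edgeR 4.0.16 (R 4.3.3) by its quasi-likelihood test, with TMM scaling, its default filter (minimum count 10), and both line and construct as terms. The 1 residual degree of freedom was moderated over the 14870 genes tested (prior 5.85), with Benjamini-Hochberg adjustment at 0.05. Each SE is the absolute log2 difference divided by the square root of the F statistic. It can be smaller than counting error for genes low in 1 line. The lines are the only replication, so p-values rest on the spread between these libraries, moderated over genes. The labels give the pairing by line, as they give 1 control and 1 knockdown library per line. Within a line, ratios of TMM-scaled counts have exact conditional 95% intervals and no test. Alternatives used DESeq2 1.42.0 or its size factors, limma 3.58.1 (with a trend) on log2(FPKM + 1) or log2(FPKM + 0.1) for genes at 1 FPKM in 2 libraries, no filter, 5 CPM in 2 libraries, the highest row per symbol, no block, and leaving out each line or construct. Named genes are the 10 members, PRKCA, up to 6 called genes per list, partners a sentence needs, and the 5 nearest profiles (at least 5 FPKM in 1 library) of ITGB7 and CD44. Members and lists were chosen with earlier results of these data known. Positions come from GENCODE 29 on GRCh38 by gene identifier. Values of some listed genes are not reported here. The fit was tested on simulated data with a fixed dispersion and the same knockdown effect in both lines. That simulation does not cover genes whose response differs between the lines.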

Additional observations from a re-analysis of the deposited data

Results flagged for a closer look

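For 5 of the 10 genes the knockdown count ratios had opposite signs in the lines, and with 1 library per line and construct this difference was not tested. Opposite signs were found for 28.9% of all tested genes with counts in both lines, against 5 of 9 (55.6%) of these genes. The log2 count ratio in KMS28BM minus that in KMS18 was 0.31 for ITGA4 (0.3052, counting interval 0.24 to 0.37), 0.36 for ITGAL (0.3585, 0.23 to 0.49) and 0.40 for ITGAE (0.3994, 0.04 to 0.76). It was -0.72 for ITGA6 (-0.7238, -0.98 to -0.47) and -0.24 for CD44 (-0.2432, -0.35 to -0.14). In KMS18 the interval of CD44, and in KMS28BM that of ITGAE (-0.25 to 0.26), included 0, so for these genes counting error alone leaves the sign in 1 line unset. ITGA4 had 11766 and 11768 counts in KMS18, so its ratio of -0.06 there rests on the library scaling (TMM factors 0.9522 and 0.9917). The error of that scaling is not part of the counting intervals, which also limits the small ITGAL ratio of -0.08 in KMS18. The gene that overlaps ITGAE, HASPIN, was also lower in the KMS18 knockdown (log2 ratio -0.68). In KMS28BM its ratio was -0.08 (-0.23 to 0.07), so HASPIN did not have opposite signs in the lines. The part of HASPIN in the ITGAE value was not tested. For ITGAL and CD44 the opposite signs hold for counts. On FPKM, CD44 had log2 ratios of -0.24 and -0.21, the same sign in both lines, while ITGAL had -0.32 and 0.23.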

How the results depend on the processing

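With 2 lines, leaving out 1 leaves no residual degree of freedom, so those values carry no test. The paired design mattered for every call: without the cell line block edgeR called 0 genes higher and 0 lower of 14870, with 215 at an unadjusted p under 0.05, and 0 members and 0 listed genes in either direction, none of them at an unadjusted p under 0.05 among the members. Against 531 genes higher and 781 lower in the main test, no filter on low counts gave 124 and 243, and the highest row per symbol gave 323 higher. Limma called 450 lower on log2(FPKM + 1) and 463 on log2(FPKM + 0.1). The share of calls that were lower was 59.5% in the main test, 47.3% and 47.1% with limma and 66.2% with no filter. The count of 1 member higher fell to 0 with DESeq2 and with no filter, each with 2 members higher at an unadjusted p under 0.05. Of the 6 other adhesion lists 7 genes were called higher, against 2 with no filter, 4 with limma at either pseudocount and 4 with the highest row per symbol. Counts between the lines stayed within 1.5 times of the main test in all alternatives run.

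FPKM ratios within a line left the counting interval for ITGB7 (0.81 and 1.92 in KMS18 and KMS28BM), ITGA4 (0.31) and ITGB1 (0.42) in KMS28BM, and ITGAL (-0.32), CD44 (-0.24) and EPCAM (-0.49) in KMS18. Leaving out 1 line turned the sign of knockdown values that had missed the threshold, with ranges of -0.0588 to 0.246 for ITGA4, -0.0822 to 0.276 for ITGAL, -0.392 to 0.0042 for ITGAE, -0.58 to 0.14 for ITGA6, -0.223 to 0.0199 for CD44, -0.543 to 0.378 for EPCAM, -0.0584 to 0.046 for ITGA8, -0.296 to 0.0642 for FERMT3, -0.175 to 1.98 for RUNX3, -0.35 to 0.884 for KRT8 and -0.0872 to 0.0357 for RELB. Signs also turned for ITGAL with limma (-0.0531 and -0.0434) and without the block (-0.0663), for ITGA8 with no filter (-0.0033) and the highest row per symbol (-0.0019), for FERMT3 at 5 CPM (0.015) and without the block (0.0561), for RUNX3 without the block (-0.172), and for RELB at 5 CPM (0.0013) and with limma (0.0266 and 0.0274). Between the lines, leaving out 1 construct gave -0.304 to 0.0922 for ITGAE, -0.0323 to 0.505 for EZR and -0.105 to 0.499 for HASPIN. The cause was not tested. ITGB2 and KRT8 gave no value at 5 CPM or with limma, and CEACAM1 none at 5 CPM, because those filters removed them. Low counts limit ITGB2, ITGAE, CLDN4 and, in KMS28BM, EPCAM and KRT8.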
